A study of Mus musculus with 6 samples.

Results

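Carbonic anhydrases and bicarbonate carriers were followed in mouse fetal liver through 9 genes of 26014 in the deposited table, taken by gene name: the carbonic anhydrases Car1, Car2, Car13, Car5b and Car8, the SLC4 carriers Slc4a2, Slc4a5 and Slc4a7, and the anion exchanger Slc26a1. The set was chosen for the opposite changes of Car1 and Slc4a5 between the genotypes, so the differences of these 9 genes are given as a description, without a test. RNA came from livers of mouse embryos at embryonic day 14.5, untreated, with 3 libraries of a Gata1 3′ UTR knockout (KO) and 3 of wild type (WT, spelled "wide type" in the labels). GATA1 is a transcription factor of red cell and megakaryocyte precursors. The series asked which genes and pathways differ during fetal erythropoiesis. The sources used here give neither the extent of the deletion nor the strain, and do not say whether each library is a separate embryo, so errors and p-values cover only how these samples vary, and that variation may be technical.

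Carbonic anhydrases interconvert carbon dioxide and water with bicarbonate and a proton. In red cells the enzyme in the cytosol works beside a chloride-bicarbonate exchanger of the membrane, which lets blood carry most carbon dioxide as bicarbonate. Other SLC4 proteins bring bicarbonate into cells with sodium and help set the pH inside them. CAR1, CAR2 and CAR13 are cytosolic enzymes, CAR5B is mitochondrial, and CAR8 is a relative without this activity that binds the IP3 receptor.

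The enzymes hold a zinc ion with histidines, and the first pair of these shows how alike the members are. The coding bases around that pair in the active enzymes are printed below from the GENCODE M21 transcripts (GRCm38), each in exon 3 except Car5b in exon 4, with the codons of the first and second ligand in capitals.
Car1: cagttcCATtttCACtggggcaactcaaac
Car2: cagtttCACtttCACtggggctcatctgat
Car13: cagttcCATttgCACtgggggtcagcagat
Car5b: cagtttCATtttCATtggggagccattgat
The stretches lie at chr3:14776266-14776295 on the minus strand (Car1), chr3:14895063-14895092 on the plus strand (Car2), chr3:14650700-14650729 on the plus strand (Car13) and chrX:163991399-163991428 on the minus strand (Car5b). Of the 30 bases, 24 in Car13, 23 in Car5b and 22 in Car1 equal those of Car2. Counted from 1 at the left end and with the base of Car2 first, the ligand codons differ by C9T in Car1 and Car13 and by C9T and C15T in Car5b, all of which leave codons for histidine.

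The values are FPKM, fragments scaled to exon length and library depth, so levels can be compared between genes as far as that length holds for the transcripts present. Judged by the smallest steps between values, each library held 14800000 to 16200000 fragments. At that depth 3 fragments on 1 kb of exon equal 0.185 to 0.202 FPKM, a floor that covers counting error only. Gata1 had 67.2, 67.7 and 68.2 FPKM in KO, against 142.9, 141.8 and 165.8 FPKM in WT, or -1.13 ± 0.069 (SE) as log2 fold change (limma, adjusted p = 0.000638). The exons of Gata1 include its 3′ UTR, so this value does not measure the coding part alone. The FPKM of WT library 1 summed to 491620 over all genes, and those of the other 5 libraries to 400545 to 421672. Of 11142 genes with a mean of at least 1 FPKM, 661 were higher and 403 lower in KO (adjusted p under 0.05 by limma, on a log2 scale with 1 added to the FPKM), and the median log2 fold change was 0.09. Scaling moved this split, to 251 higher and 495 lower by median of ratios and to 777 and 134 by TPM.

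The labels call the cells embryonic hepatocytes. Alb, the albumin of hepatocytes, had 482.4, 523.1 and 392.9 FPKM in KO and 353.7, 963.7 and 148.6 FPKM in WT. Alas2, the haem synthesis enzyme of red cell precursors, had 974 to 1026 FPKM in KO and 1238 to 1445 FPKM in WT. Markers of both cell types were thus found in every library, and the labels give no sort. In such bulk samples fewer cells of a type and less RNA per cell cannot be told apart.

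The levels of the 9 genes ran from a few fragments for Car5b to those of Car2, as the plot of their values in each library shows. Car2 stood at rank 15 of all genes by mean level. In WT the order by mean was Car2, Car1, Slc26a1, Slc4a5, Slc4a2, Car13, Slc4a7, Car8 and Car5b. Libraries of neighbours in this order overlapped in WT for Slc26a1 and Slc4a5, for Slc4a2 and Car13, and for Car13 and Slc4a7. In KO Slc4a5 stood at rank 7, against rank 4 in WT, and no neighbours in the KO order overlapped.

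**Figure D1:**
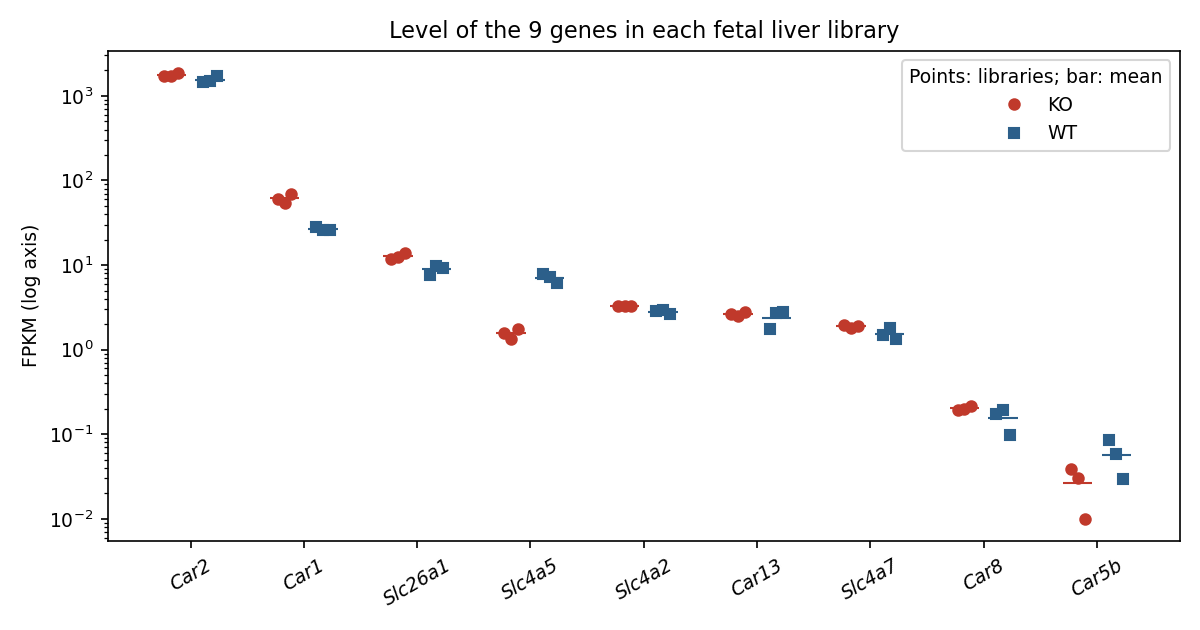
FPKM of the 9 genes on a log axis, ordered by WT mean, with a point for each library (KO circles left, WT squares right) and a bar at the group mean. Car1 in KO (53.9 to 68.6) lies above WT (25.9 to 27.9), and Slc4a5 in KO (1.35 to 1.75) lies below WT (6.10 to 7.89).

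Car1 was higher in KO than in WT. Its level was 61.1, 53.9 and 68.6 FPKM in KO libraries 1 to 3, against 27.9, 26.2 and 25.9 FPKM in WT libraries 1 to 3. Every KO library lay above every WT library, by more than the spread within either group. The means were 61.2 ± 7.33 FPKM in KO and 26.7 ± 1.11 FPKM in WT (SD, n = 3 each), a ratio of 2.29. On the log2 scale the difference was 1.16 ± 0.090 (SE), rank 46 from the top of the 11142 tested genes. These levels rest on 1058 to 1337 fragments in KO and 515 to 529 in WT. Car1, ENSMUSG00000027556, lies on the minus strand of chromosome 3 from 14766216 to 14808368, in GRCm38.

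Car2 (ENSMUSG00000027562, chromosome 3 from 14886273 to 14900770, plus strand), the fast cytosolic enzyme and the most abundant of the set, had 1714, 1718 and 1861 FPKM in KO, against 1444, 1479 and 1728 FPKM in WT. WT library 3 lay above 2 of the KO libraries, so the groups overlapped. The means were 1765 ± 83.7 FPKM in KO and 1550.3 ± 155.0 FPKM in WT (SD, n = 3 each), or 0.19 ± 0.086 (SE) as log2 fold change. That value was 0.09 with median-of-ratios scaling and 0.31 with TPM scaling, where the median of all tested genes was 0.01 and 0.20.

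Car13, which lies between 14641727 and 14663002 on the plus strand of the same chromosome, had 2.64, 2.52 and 2.78 FPKM in KO and 1.73, 2.68 and 2.75 FPKM in WT. WT library 1 alone was low, and the other libraries of both groups intermingled. The log2 fold change of 0.12 became -0.03 without WT replicate 1. Car8 (ENSMUSG00000041261, chromosome 4) had 0.193, 0.198 and 0.216 FPKM in KO and 0.175, 0.192 and 0.0976 FPKM in WT, which are 12 to 13 and 6 to 12 fragments. Car5b (ENSMUSG00000031373, chromosome X) had 0.0390, 0.0300 and 0.0101 FPKM in KO and 0.0849, 0.0582 and 0.0296 FPKM in WT, which are 1 to 4 and 3 to 8 fragments. Both fell below the mean of 1 FPKM asked for the fit, and differences at that depth were not detectable.

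The 15 carbonic anhydrases in the table summed to 1781 to 1937 FPKM in KO and 1478 to 1760 FPKM in WT. Car2 made up 96.2% ± 0.213 of this sum in KO and 97.8% ± 0.318 in WT (SD, n = 3 each). The share of Car1 was 3.33% ± 0.269 in KO and 1.70% ± 0.212 in WT. There were 27.1 to 31.9 units of Car2 per unit of Car1 in KO libraries, against 51.7 to 66.8 in WT libraries. The mixture of the cytosolic enzymes' transcripts thus held more Car1 in KO, with Car2 still far ahead of it in every library. These shares largely restate the difference of Car1, for which the set was chosen.

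Slc4a5, which encodes the electrogenic sodium bicarbonate cotransporter NBCe2, was lower in KO than in WT. It had 1.58, 1.35 and 1.75 FPKM in KO, against 7.89, 7.26 and 6.10 FPKM in WT. Even the highest KO library lay far below the lowest WT library. The means were 1.56 ± 0.203 FPKM in KO and 7.08 ± 0.906 FPKM in WT (SD, n = 3 each), so that KO had 22.0% of the WT level. On the log2 scale the difference was -1.66 ± 0.109 (SE), rank 16 from the bottom of the tested genes. It understates the change of so low a gene, and with a pseudocount of 0.1 in place of 1 it was -2.11. There were 123 to 159 fragments in KO and 565 to 682 in WT. The gene, ENSMUSG00000068323, lies on the plus strand of chromosome 6 from 83219828 to 83304945.

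Slc26a1, an exchanger of sulfate, oxalate and bicarbonate, also stood higher in KO than in WT, by less than Car1. The gene, ENSMUSG00000046959, lies on the minus strand of chromosome 5 from 108669878 to 108675569. It had 11.8, 12.3 and 13.9 FPKM in KO, against 7.73, 9.68 and 9.26 FPKM in WT. All KO libraries lay above all WT libraries. The means were 12.7 ± 1.11 FPKM in KO and 8.89 ± 1.03 FPKM in WT (SD, n = 3 each), or 0.47 ± 0.098 (SE) as log2 fold change. Slc26a1 shares 141 exon bases (3.48% of its own) with Idua on the other strand, a lysosomal enzyme gene with 1.83 to 2.43 FPKM in KO and 1.77 to 2.14 FPKM in WT. The sources used here do not say whether fragments were counted by strand.

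Slc4a2 (ENSMUSG00000028962, chromosome 5 from 24423837 to 24440950, plus strand), the chloride-bicarbonate exchanger found in most cells, had 3.30, 3.28 and 3.32 FPKM in KO, against 2.86, 2.96 and 2.64 FPKM in WT. The groups did not overlap, and on the log2 scale the difference was 0.17 ± 0.071 (SE). Slc4a2 shares 1141 exon bases (13.7%) with Fastk on the other strand, which averaged 15.6 FPKM in KO and 15.05 FPKM in WT. Slc4a7, the electroneutral sodium bicarbonate cotransporter NBCn1 (ENSMUSG00000021733, chromosome 14), had 1.95, 1.80 and 1.90 FPKM in KO and 1.47, 1.81 and 1.35 FPKM in WT, with WT library 2 inside the range of KO. On the log2 scale the difference was 0.18 ± 0.099 (SE). For both genes and for Car2 the value lay near the median of all tested genes, 0.09, and for Slc4a2 it was 0.10 and 0.26 with median-of-ratios and TPM scaling.

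Of the 7 members in the fit, 3 had all KO libraries above all WT libraries (Car1, Slc26a1 and Slc4a2) and 1 had all below (Slc4a5). Among all tested genes 35.6% did not overlap between the groups, 26.8% with KO above and 8.8% with KO below. The members were chosen on this contrast, so nothing is read from that count. The plot of all tested genes places Car1 and Slc4a5 at opposite edges of the cloud and the other members inside it.

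**Figure D2:**
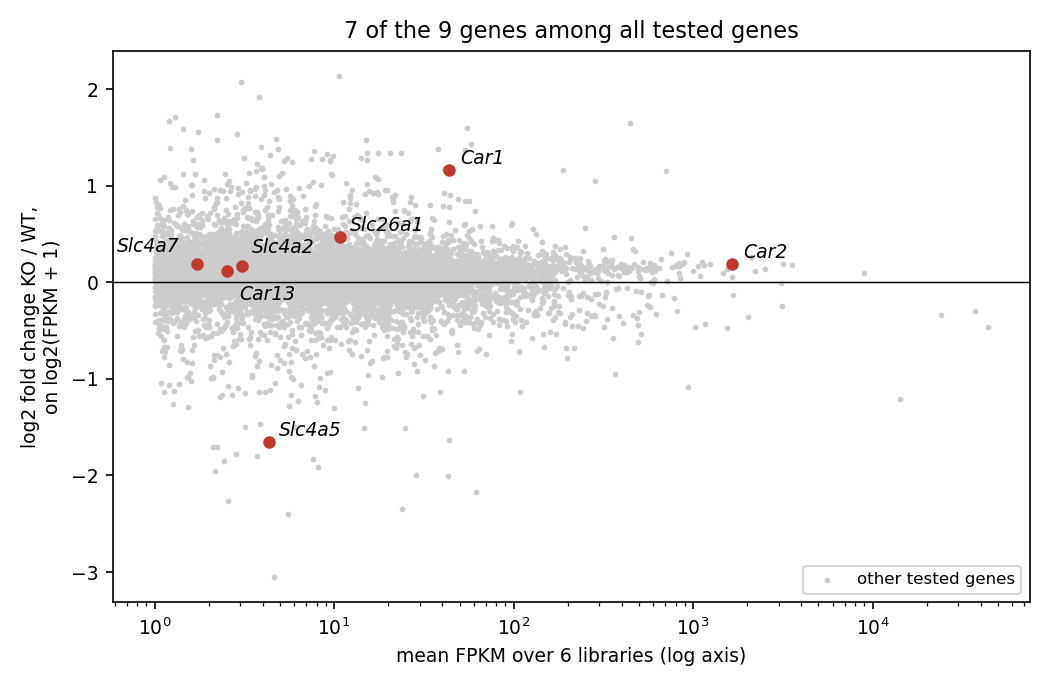
Log2 fold change of KO over WT on log2(FPKM + 1) against the mean FPKM of 6 libraries (log axis) for the 11142 tested genes in grey, with the 7 members in the fit in red. Car1 stands at 1.16 and Slc4a5 at -1.66, while Car2, Car13, Slc4a2 and Slc4a7 lie between 0.12 and 0.19.

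Red cells use another SLC4 protein, band 3, encoded by Slc4a1, which is outside the 9 genes. It fell to 1705, 1737 and 1868 FPKM in KO, against 2379, 2052 and 2370 FPKM in WT, or -0.35 ± 0.082 (SE) as log2 fold change (limma, adjusted p = 0.0436). When libraries were left out in turn, the call held 1 time in 6, without WT replicate 2. Without the others the adjusted p was 0.0774 to 0.166, and it was lost as well with no filter and with each other scaling. Slc4a1 made up 99.6% of summed SLC4 transcripts in KO and 99.5% in WT. Car2 and Slc4a1 stood at nearly equal levels in KO, with a ratio of Car2 to Slc4a1 of 1.01, 0.989 and 0.996, against 0.607, 0.721 and 0.729 in WT. The ratio does not depend on library scaling, and it combines the differences of Car2 and Slc4a1 given above. The groups did not overlap in it, as in 35.6% of single tested genes. The share of gene pairs was not counted, so nothing is read from that separation.

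Setting Slc4a1 aside, the remaining 9 SLC4 genes summed to 7.01 ± 0.252 FPKM in KO and 11.6 ± 1.23 FPKM in WT (SD, n = 3 each). Slc4a5 made up 22.2% ± 2.17 of this sum in KO and 60.7% ± 2.74 in WT. The share of Slc4a2 was 47.1% ± 1.44 in KO and 24.3% ± 1.39 in WT, and that of Slc4a7 was 26.9% ± 0.519 in KO and 13.2% ± 1.38 in WT. These shares depend on exon length, 8322 bases for Slc4a2 and 15205 for Slc4a7. In KO the 2 genes had 429 to 444 and 430 to 479 fragments. By FPKM the leading gene among them was thus Slc4a2 in KO and Slc4a5 in WT, while the log2 difference of Slc4a2 itself was 0.17. The switch largely restates the fall of Slc4a5, for which the set was chosen.

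**Figure D3:**
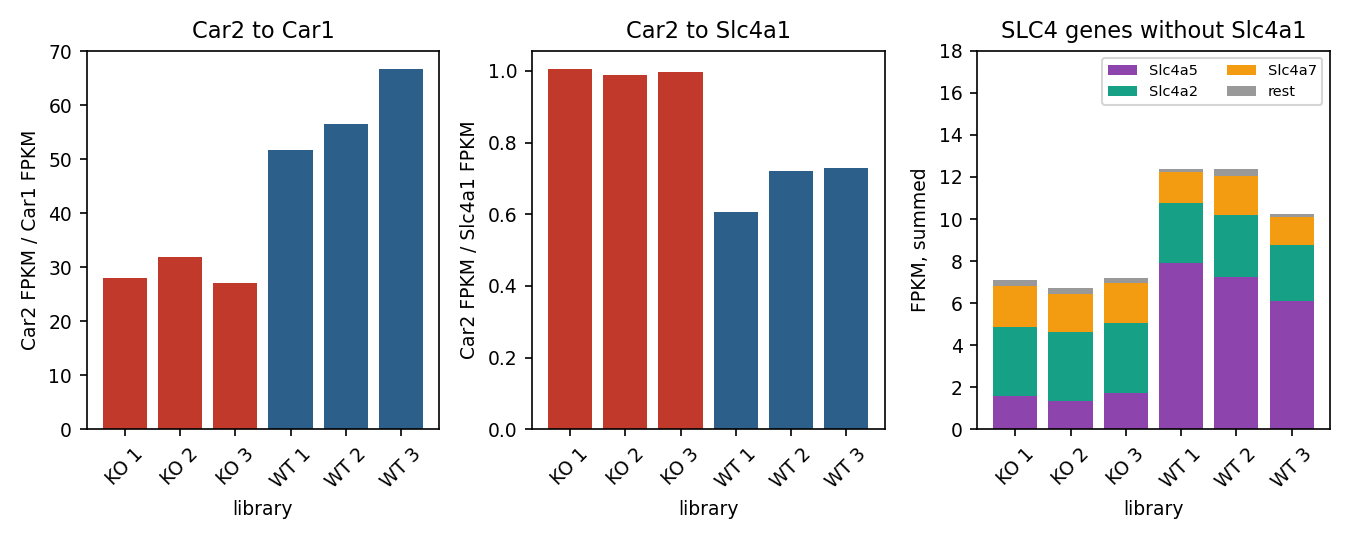
Ratio of Car2 to Car1 FPKM (left), ratio of Car2 to Slc4a1 FPKM (middle) and summed FPKM of the 9 SLC4 genes other than Slc4a1 (right, stacked by gene) in each library, KO in the left 3 bars of each panel and WT in the right 3. The first ratio is 27.1 to 31.9 in KO and 51.7 to 66.8 in WT, and the stacked Slc4a5 part is the one that differs most between the groups.

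Other genes of acid-base transport were read from lists of the pathway, beside 5.93% of tested genes called higher in KO and 3.62% called lower. These lists were chosen with earlier results of these data known, so their counts are a description. Of 10 other carbonic anhydrases with a row, 2 reached the mean of 1 FPKM, Car3 and Car9, and neither passed the test (limma, 0 at an unadjusted p under 0.05 and 0 with voom). Car3, a cytosolic enzyme of low activity, had 1.75, 3.22 and 2.19 FPKM in KO and 1.95, 4.46 and 1.42 FPKM in WT. Car9, a cell surface enzyme induced by hypoxia, had 1.12 ± 0.149 FPKM in KO and 1.11 ± 0.214 FPKM in WT (SD, n = 3 each). Of 10 other SLC26 genes only Slc26a2, a sulfate carrier, passed the filter, and it was not called (limma, adjusted p = 0.546, 0 at an unadjusted p under 0.05 and 0 with voom). It had 1.70 ± 0.162 FPKM in KO and 1.86 ± 0.0816 FPKM in WT (SD, n = 3 each), and the next most abundant, Slc26a11, had 0.629 FPKM in KO and 0.553 FPKM in WT on average.

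Among 3 tested sodium-proton exchangers 1 fell, Slc9a8 of the Golgi, with 7.03 ± 0.293 FPKM in KO and 9.02 ± 0.811 FPKM in WT (SD, n = 3 each) and a log2 difference of -0.32 (limma, adjusted p = 0.0476). That call was kept in 1 of the 6 fits without a library, the one without WT replicate 2, and without the others the adjusted p was 0.0755 to 0.172. The 2 others were not called.

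Of 3 genes listed as gas and water channels of the red cell or as their partners 2 fell. Aqp1, which passes water and carbon dioxide, had 43.3, 46.0 and 51.7 FPKM in KO, against 69.3, 74.9 and 89.9 FPKM in WT, a log2 difference of -0.71 (limma, adjusted p = 0.0139). Rhd, a protein of the Rh complex, had 388.4 ± 28.5 FPKM in KO and 595.2 ± 44.6 FPKM in WT (SD, n = 3 each), a log2 difference of -0.61 (limma, adjusted p = 0.00881). Rhag, the ammonia channel of that complex, had 219.6 ± 10.4 FPKM in KO and 243.5 ± 15.7 FPKM in WT and was not called (limma, adjusted p = 0.192). The call of Aqp1 was lost without KO replicate 1 (limma, adjusted p = 0.0644) and without KO replicate 2 (adjusted p = 0.0668), and that of Rhd without KO replicate 2 (adjusted p = 0.0526).

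Of 5 tested regulators of bicarbonate carriers 1 rose, Ahcyl2, a relative of the IRBIT protein that binds sodium bicarbonate cotransporters. It had 2.80 ± 0.161 FPKM in KO and 2.02 ± 0.0325 FPKM in WT (SD, n = 3 each), a log2 difference of 0.33 (limma, adjusted p = 0.0434). The call was lost in each of the 6 fits without a library, with adjusted p of 0.0637 to 0.157. Slc9a3r1, a scaffold of membrane transporters, had 29.4 ± 3.01 FPKM in KO and 22.7 ± 3.28 FPKM in WT and was not called (limma, adjusted p = 0.105). Oxsr1, a kinase of the WNK pathway, had a log2 fold change of 0.04 and did not pass (adjusted p = 0.644).

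Of 6 tested enzymes that consume bicarbonate 1 fell, Pcx, the mitochondrial pyruvate carboxylase. It had 42.3, 40.1 and 42.1 FPKM in KO, against 61.5, 48.3 and 54.9 FPKM in WT, a log2 difference of -0.39 (limma, adjusted p = 0.0415), a call kept in 1 of the 6 fits without a library, the one without WT replicate 2 (adjusted p of 0.0611 to 0.152 in the others). Cad, which uses bicarbonate to begin pyrimidine synthesis, had 34.6 ± 0.708 FPKM in KO and 29.7 ± 1.65 FPKM in WT (SD, n = 3 each) and was not called (limma, adjusted p = 0.0595). None of Slc9a8, Ahcyl2 and Pcx was called after TPM or non-globin scaling or when no filter was set.

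**Figure D4:**
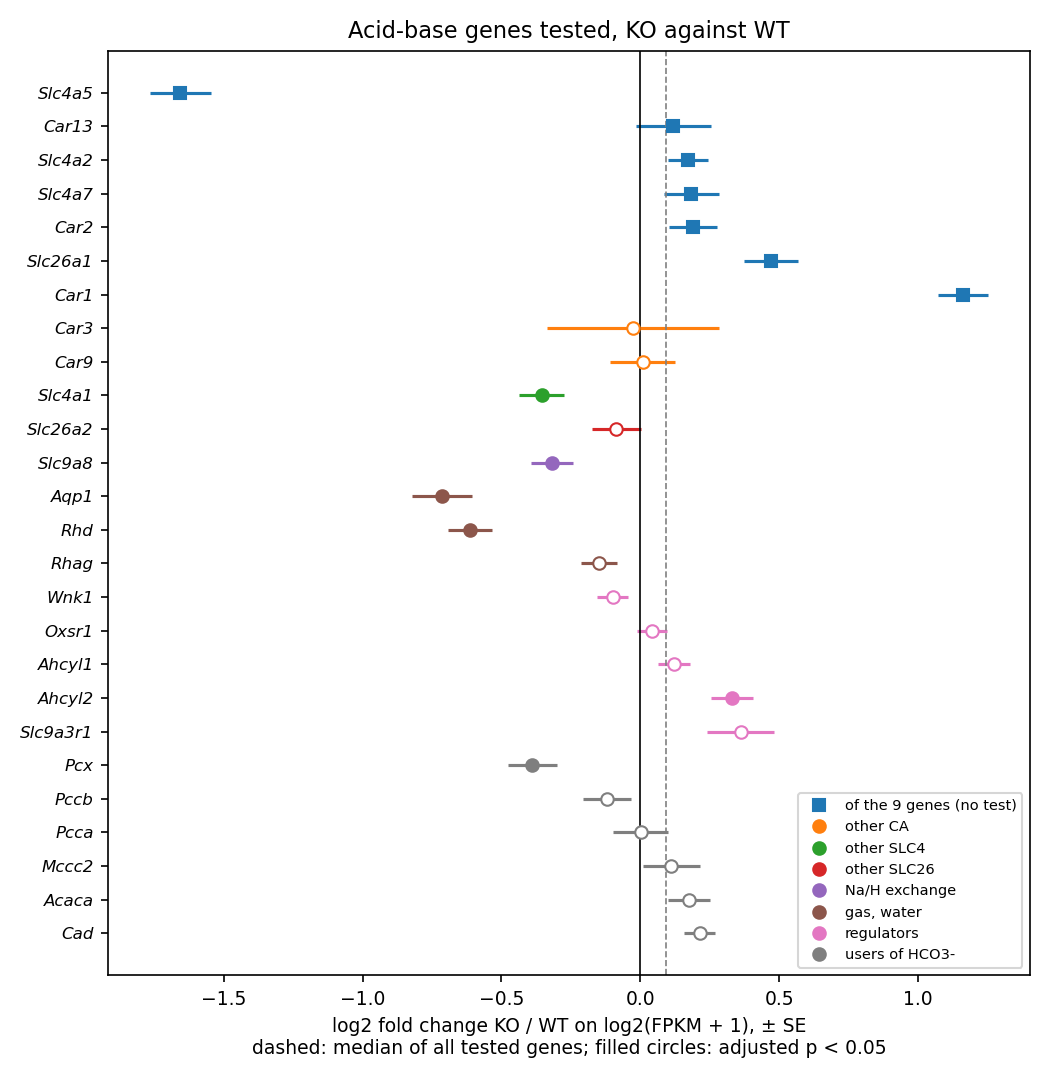
Log2 fold change of KO over WT on log2(FPKM + 1) with its standard error for the 7 members in the fit (squares) and tested genes of the other lists (circles, filled where the adjusted p was under 0.05), with a dashed line at the median of all tested genes, 0.09. Filled circles stand left of 0 for Slc4a1, Slc9a8, Aqp1, Rhd and Pcx and right of 0 for Ahcyl2.

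Car13, Car1, Car3 and Car2 follow each other on chromosome 3 between 14641727 and 14900770. In this order the log2 fold changes were 0.12, 1.16, -0.03 and 0.19, that of Car3 with an SE of 0.311. Car1 was chosen for its change in this contrast, so nothing is read from its distance to the genes on both sides. Of 29 tested genes that lie nearest to the 9 members on their chromosomes, 1 was higher and 3 were lower in KO (13.8%, against 9.55% of all tested genes). None of those called neighboured Car1, Car2, Car13, Slc4a2, Slc4a5 or Slc4a7. Next to Slc26a1, Rnf212, a gene of meiotic recombination 53.7 kb away, had 0.470 FPKM in KO and 2.61 FPKM in WT on average. Its log2 difference was -1.29 (limma, adjusted p = 0.00991), and -2.28 with a pseudocount of 0.1. The KO libraries of Rnf212 (0.272 to 0.676 FPKM) all lay below 1 FPKM, so it passed the filter through WT only. The share of 13.8% includes Rnf212, so nothing is read from its distance to 9.55%. Fgfrl1, a receptor of the FGF family 16.8 kb from Slc26a1, had 6.98 FPKM in KO and 11.2 FPKM in WT, a log2 difference of -0.60 (limma, adjusted p = 0.0382). Pir, 241.4 kb from Car5b, had a log2 difference of -0.45 (limma, adjusted p = 0.0118), and Nsmaf, 1689 kb from Car8, of 0.23 (adjusted p = 0.0453). Calls were lost without KO replicate 2 for all 4 genes (adjusted p of 0.0519 for Rnf212, 0.113 for Fgfrl1, 0.0697 for Pir and 0.163 for Nsmaf) and without KO replicate 1 for all but Rnf212 (adjusted p of 0.123 for Fgfrl1, 0.0605 for Pir and 0.121 for Nsmaf). That of Nsmaf was lost in each fit without a library, and that of Fgfrl1 was kept in the fit without WT replicate 1 only.

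Promoter sequences were shown because GATA1 binds short motifs, searched here as the hexamer AGATAA with its variants AGATAG or TGATAA or else TGATAG. RefSeq (GRCm38.p6) windows of 250 bases before to 50 after the gene start were matched for 5 of the 9 members, Car5b, Slc4a2, Slc4a5, Slc4a7 and Slc26a1, with 7 windows in all. Those of Slc4a2, Slc4a5 and Slc4a7 lie inside the deposited span of the gene, that of Slc4a5 from base 83237125, against 83219828 for the span. For these genes the bases before the outer start were not searched. On either strand a hexamer stood in 1 of these 7 windows, against 29.8% of 32851 windows of all genes. Both matches were in Slc26a1, 177 and 53 bases before a RefSeq start that lies inside the gene's span in the deposited table, so both stretches fall within that span. They read on the gene's strand with the hexamer in capitals.
Slc26a1 (chr5:108675525-108675554, minus strand): gtaaaggggagtTTATCTcatgcccacata
Slc26a1 (chr5:108675401-108675430, minus strand): cccatgactcagCTATCTtttgggtaaata
Among called genes of the other lists, at least 1 window of Rhd, Ahcyl2 and Pcx held a hexamer and those of Slc9a8 and Aqp1 held none, while Slc4a1 had no window to search. That of Rhd, the called gene of highest level with a match, lay 43 bases before its start.
Rhd (chr4:134864481-134864510, plus strand): cccggcagcctgAGATAAgacctttggcgg
A match in these letters is a description and does not show binding.

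Genes with the pattern most like that of Car1 over the 6 libraries were Lgals1, Pdzk1ip1, Wnk4, Rbms1 and Gadd45g, by the smallest root mean square difference of centred log2 values among 6722 genes with a mean of at least 5 FPKM. These differences were 0.107 to 0.187 log2 units, against a median of 0.558 over all genes compared. Lgals1, which encodes galectin-1, had 981.0 FPKM in KO and 439.6 FPKM in WT on average. Wnk4, a kinase that regulates chloride and sodium transport in the kidney, had 15.6, 13.7 and 14.3 FPKM in KO and 5.27, 4.83 and 5.70 FPKM in WT. For Slc4a5 they were Prss50, Atg4a, Shb, Pla2g16 and Cd36, at 0.0937 to 0.228 log2 units, against a median of 0.884 over 6723 genes. Prss50, a serine protease gene, had 2.65 FPKM in KO and 9.34 FPKM in WT on average, and Atg4a, an autophagy protease, had 12.5 FPKM in KO and 37.3 FPKM in WT. All 6 libraries enter this measure, and with them the difference between the groups that chose Car1 and Slc4a5.

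Markers of several cell types moved with the genotype, read beside 5.93% of tested genes called higher in KO and 3.62% called lower. The marker lists too were chosen with earlier results of these data known, so their counts are a description. Of 12 tested megakaryocyte markers 9 rose and 3 did not pass, and their summed level was 486.1 to 880.8 FPKM in KO and 221.7 to 440.7 FPKM in WT. Pf4, the platelet chemokine, was not called (limma, adjusted p = 0.0685) and had 331.5, 261.4 and 181.7 FPKM in KO and 119.8, 161.1 and 72.4 FPKM in WT. Ppbp, next to it in mean level, had 82.7 ± 22.9 FPKM in KO and 83.6 ± 31.5 FPKM in WT (SD, n = 3 each). It was not called either (limma, adjusted p = 0.977). Fits with a library left out were not read for the marker lists. Of 8 tested erythroid markers 4 fell, with a sum of 3084 to 3298 FPKM in KO and 3806 to 4217 FPKM in WT. None of 6 tested stem and early progenitor markers passed (limma, 3 at an unadjusted p under 0.05 and 1 with voom), with a sum of 45.8 to 51.5 FPKM in KO and 31.2 to 45.8 FPKM in WT. Among KO libraries, library 3 had the highest Car1 and the lowest megakaryocyte sum, while among WT libraries both were lowest in library 3. Car5b, at 1 to 4 fragments in KO, had the order of that sum in KO but not in WT. The share of all genes with either order was not counted, so nothing is read from it. The part of these cells in the differences of Car1, Slc26a1 and Slc4a5 was not tested.

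None of the 12 tested hepatoblast and hepatocyte, 9 macrophage, 9 neutrophil and 7 endothelial markers passed (limma, 0, 0, 0 and 1 at an unadjusted p under 0.05, and 0 in each list with voom). Of 8 mast cell, basophil and eosinophil markers 1 rose and 1 fell, and of 4 stellate markers 1 rose. The hepatoblast sum was 1112 to 1526 FPKM in KO and 432.5 to 2511 FPKM in WT, highest in WT library 2 and lowest in WT library 3. Car3, Slc4a2, Slc4a7 and Car8 were also highest in WT library 2 and lowest in WT library 3, and varied there by 3.13-fold, 1.12-fold, 1.34-fold and 1.97-fold. Genes of other lists had that order as well, such as Cad (1.12-fold) and Slc9a3r1 (1.32-fold). The share of all genes with that order was not counted, so nothing is read from it. Car1 and Slc4a5 were highest in WT library 1 and lowest in WT library 3, and varied by 1.08-fold and 1.29-fold. In KO the hepatoblast sum was highest in library 2 and lowest in library 3, and Car3 was highest in library 2 and lowest in library 1. The part of hepatoblast content in these values was not tested. No marker of any list was at 0 in all libraries.

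**Figure D5:**
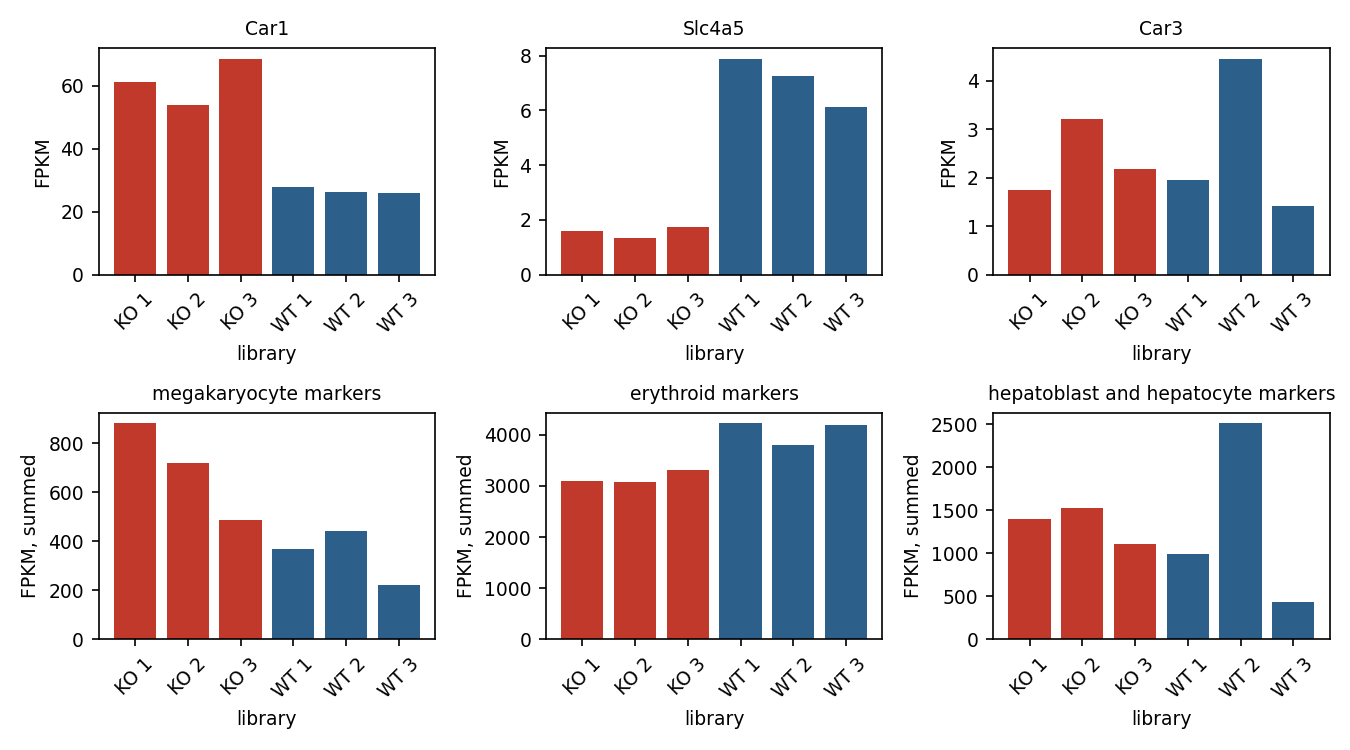
FPKM of Car1, Slc4a5 and Car3 (top) and summed FPKM of megakaryocyte, erythroid and hepatoblast markers (bottom) in each library, KO in the left 3 bars of each panel and WT in the right 3. Car3 has the order of the hepatoblast sum in WT, with library 2 highest (4.46 and 2511 FPKM), but not in KO, while Car1 and Slc4a5 separate the groups.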

How the data were processed

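Paired reads of 150 bases were made from RNA of 6 mouse fetal liver samples, per the labels' protocols. Gene levels came as FPKM in a single table deposited by the authors. The sources used here name no aligner, counter or build and do not say whether strand was used. Of 26022 lines after the header 8 held no gene identifier and were left out. GENCODE M21 holds 25935 of the 26014 identifiers, 23607 of them at the same positions, so coordinates are given as GRCm38 (those of Slc4a7 differ there and are not printed). With merged exon lengths from M21, low values stepped by whole fragments within 0.02 for 98.8% to 99.1% of 7720 to 8099 values per library, which gives the depth.

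The fit was limma 3.58.1 in R 4.3.3 (lmFit, eBayes with a trend, two-sided, without a replicate block) on log2 of FPKM + 1 for genes with a mean of at least 1 FPKM, with Benjamini-Hochberg adjustment over all 11142 genes and a threshold of 0.05. It was tested on simulated data. The fit was repeated with each library left out, with voom on recovered fragments, with library weights, with a replicate block, with a pseudocount of 0.1, with a mean of at least 5 FPKM or no minimum, and after scaling by median of ratios, by TPM or by genes other than globins. The members and lists were chosen with earlier results of these data known. Genes named were the members, Gata1, called genes and the 2 most abundant of each acid-base list, called neighbours (of the 2 nearest tested genes on each side), the 5 genes most like Car1 and Slc4a5, and, of the 2 most abundant markers of each cell type, Alb, Alas2, Pf4 and Ppbp. Figures were drawn with matplotlib 3.10.9, and tables made with numpy 2.4.6 and pandas 2.3.3 in Python 3.11.15. Proteins were not used here. Some genes and 1 coding stretch are not reported here.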

Additional observations from a re-analysis of the deposited data

How the results depend on the processing

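The direction of Car1, Car2, Slc26a1, Slc4a2, Slc4a5 and Slc4a7 was kept in the alternatives run, as was the call of Gata1 (15 of 15). The log2 fold change of Car1 ranged from 1.06 to 1.28. That of Slc4a5 was -2.11 with a pseudocount of 0.1 and -2.18 with voom, and -1.73 to -1.56 otherwise over the scalings. Genes called higher and lower numbered 267 and 246 with no filter, 330 and 135 with non-globin scaling, 251 and 495 with median-of-ratios scaling, and 777 and 134 with TPM scaling. With a library left out they ranged from 62 to 736 and from 111 to 395. They were 62 and 111 without KO replicate 2, 97 and 127 without KO replicate 1, 271 and 224 without KO replicate 3, 220 and 202 without WT replicate 3, and 439 and 325 without WT replicate 1. The cause was not tested. Calls in the small lists were less stable. Under TPM scaling, non-globin scaling or no filter 0 genes were called among the other SLC4 genes, the sodium-proton exchangers, the regulators and the bicarbonate-using enzymes. Median-of-ratios scaling gave 0 among SLC4 genes and regulators, the mean of at least 5 FPKM 0 regulators (Ahcyl2 is below it) and 2 enzymes, library weights 2 enzymes, and voom 2 exchangers. With a library left out, calls ranged from 0 to 1 for SLC4 genes and exchangers, from 0 to 2 for the channel list and for enzymes, and were 0 for regulators. Neighbours called were 2 with no filter or a mean of at least 5 FPKM, 1 with TPM or non-globin scaling, and 0 to 3 with a library left out. Libraries of the same number did not pair consistently: the correlations of their deviations from the group means were -0.10, 0.01 and 0.26 for numbers 1 to 3. That of number 3 was the highest of all KO and WT pairs, and pairs of unlike number had -0.19 to 0.18. With the replicate block 686 genes were higher and 386 lower, and calls of Slc9a8 (0 exchangers called), Ahcyl2 and Nsmaf were lost, while Slc9a3r1 was called (limma, adjusted p = 0.0253), so that 1 regulator was called there too. Depth limits Car8, Car5b and the other genes under 1 FPKM.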

Other observations

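Like Car3 and the members Slc4a2, Slc4a7 and Car8, some other low genes of the families were highest in WT library 2 and lowest in WT library 3, as Alb was. Others were not, such as Car4, Car6 and Car9, highest in WT library 1, and Car15, highest in WT library 3. Cad and Slc9a3r1 of other lists had the order of Alb in WT too. The share of all genes with that order was not counted, so nothing is read from it. Car14, a carbonic anhydrase of the cell surface, had 0.584, 0.450 and 0.528 FPKM in KO and 0.424, 1.07 and 0.370 FPKM in WT. Slc4a4, the sodium bicarbonate cotransporter NBCe1, had 0.120, 0.0706 and 0.0651 FPKM in KO and 0.0374, 0.200 and 0.0290 FPKM in WT. In KO neither gene kept the order of Alb, and both lay below the mean of 1 FPKM asked for the fit.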
